A study of Homo sapiens with 4 samples.

Results

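Mitochondrial protein import and proteolysis were examined through 40 named human genes, picked by symbol from a list of outer and inner membrane translocases, import chaperones, processing enzymes and quality-control proteases. Each symbol had 1 row among the 78932 Ensembl genes of the table, and 39 of the 40 passed the filter on low counts. TOMM6, a small subunit of the outer membrane translocase, was listed at 0 counts in all 4 libraries and was not tested. In GENCODE 29 all 637 of its exon bases are shared with another gene on the same strand, ENSG00000124593, which had 13 counts over the 4 libraries, so the level of TOMM6 could not be read from these counts.

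The cells were RPMI 8226, a human multiple myeloma line, transfected with an LNA ASO (an antisense oligonucleotide with locked nucleic acid bases, which pairs with a chosen RNA). The groups were cells given the CELF2 ASO at 5 nM (2 libraries) and cells given a control ASO, for which no dose is labelled (2 libraries), both for 72 hours. CELF2 is an RNA-binding protein that acts on splicing and mRNA stability, and the comparison asks which transcripts differ when its RNA is targeted. All libraries come from this line, no label ties them to separate cultures or gives the ASO sequences, so p-values rest on library-to-library spread, possibly technical.

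Most mitochondrial proteins are made in the cytosol and carried into the organelle as unfolded chains. The TOM complex of the outer membrane receives them, and the SAM, MIA, TIM22 and TIM23 systems sort them to the outer membrane, the intermembrane space, the inner membrane and the matrix. In the matrix an HSP70 motor pulls the chain in, a peptidase removes its targeting signal, and ATP-dependent proteases remove proteins that fail to fold. Plasma cell tumours make large amounts of secreted protein, and their mitochondria and proteases are studied as points of weakness.

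Total gene counts were 26061900 and 23599190 in the CELF2 ASO libraries and 29161298 and 24493148 in the control ASO libraries. CELF2 (ENSG00000048740) had 56.6 and 48.8 CPM (counts scaled to library size) with the CELF2 ASO, against 128 and 128 CPM with the control ASO, a 2.43-fold lower level (edgeR adjusted p = 2.88e-05). All 10 plasma cell markers examined passed the count filter, and they moved both ways, with 4 higher, among them CD38 (2.43-fold) and IRF4 (1.71-fold), and 4 lower, among them SDC1 (2.34-fold) and PRDM1 (1.86-fold). Of 8 T and NK cell markers 3 were tested and 1, CD8B, fell, and the tested markers summed to 65.6 and 39.4 CPM with the CELF2 ASO, against 267 and 264 CPM with the control ASO, while CD3D had at most 2 counts in any library. Of 7 myeloid markers 4 were tested and 3 fell, CD14, FCGR1A and S100A9, the last with 2 and 0 counts with the CELF2 ASO, against 40 and 36 counts with the control ASO. The tested myeloid markers summed to 3.03 and 3.43 CPM with the CELF2 ASO, against 7.97 and 8.40 CPM with the control ASO, and LYZ and S100A8 had 0 counts throughout. Of 7 stromal and epithelial markers 6 were tested, with VIM, EPCAM and COL1A1 lower and KRT8 higher, and they summed to 170.1 and 183 CPM with the CELF2 ASO, against 284 and 281 CPM with the control ASO. None of 4 erythroid markers passed the filter. The part of these marker changes in the levels of the import genes was not tested. The spread between replicates, as a biological coefficient of variation, was 13.7% for the CELF2 ASO pair and 3.58% for the control ASO pair. The labels do not say whether the number that tells the libraries of a group apart marks a replicate or a different oligonucleotide. In the second case this spread, and the p-values that rest on it, would include the difference between oligonucleotides. Values here are bulk levels relative to all mRNA, so fewer cells with a transcript and less of it per cell cannot be told apart.

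Import and protease genes were mostly lower with the CELF2 ASO. Of 39 tested, 28 fell and 6 rose at an adjusted p under 0.05 in edgeR's quasi-likelihood test, and 5 did not pass. The falls made up 71.8% of the tested members, where 27.9% of all 19511 tested genes and 35.4% of the 12754 tested protein-coding genes were called lower. Rises made up 15.4% of the members, where 27.5% of all tested genes and 28.0% of the tested protein-coding genes were called higher. The members were chosen with earlier results of these data known, which may bear on these shares. A fall of at least 2-fold was called for 12 of 39 members. The same was called for 2173 of 19511 tested genes (11.1%) and 1550 of 12754 tested protein-coding genes. No member rose by as much, where 2820 of all tested genes and 1534 of the tested protein-coding genes were called higher by at least 2-fold. The median log2 fold change was -0.66 over the 39 members and 0.04 over all tested genes. The CELF2 ASO and control ASO libraries did not overlap for 35 of 39 members (89.7%). Of all tested genes 79.6% did not overlap, and of the tested protein-coding genes 84.0%, so the members' share is near the background. The counts by role that follow, of calls and of non-overlap, have the same backgrounds. Summed over the 39, the level was 4093 and 4014 CPM with the CELF2 ASO, against 4966 and 5078 CPM with the control ASO. The count of rises depended on the control libraries. It was 2 without control_LNA_ASO replicate 1 and 3 without control_LNA_ASO replicate 2, fits in which the spread comes from the CELF2 ASO pair, while the count of falls was 25 in each.

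**Figure D1:**
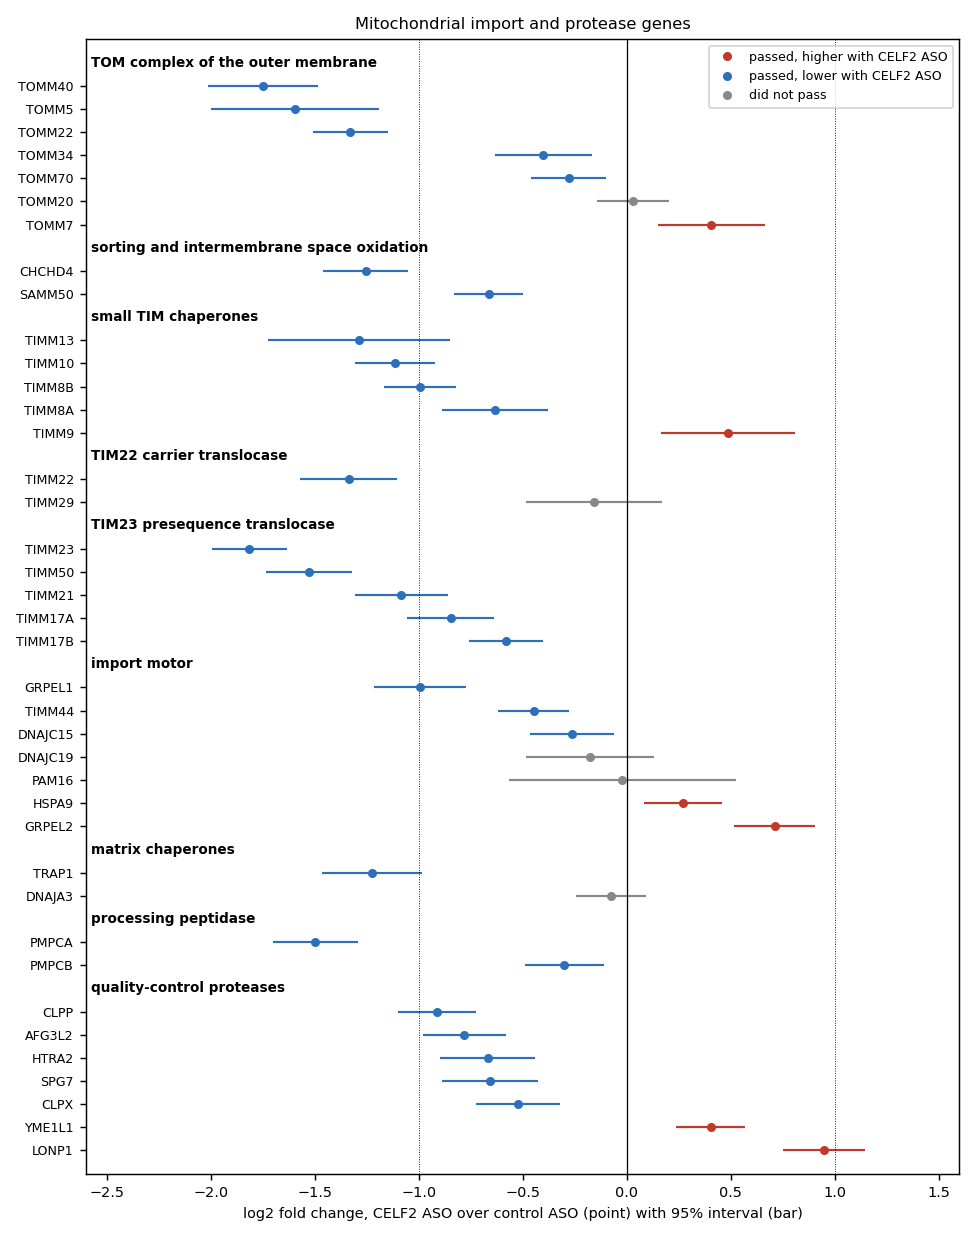
Log2 fold change of each tested member, CELF2 ASO over control ASO (x axis, points), with 95% intervals (bars), grouped by role and coloured by whether the gene passed an adjusted p of 0.05. The 5 genes of the TIM23 translocase all lie left of 0, and LONP1, at 0.95, lies farthest right.

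Of 7 tested genes grouped with the TOM complex, among them the cytosolic cochaperone gene TOMM34, 5 fell. The fall was at least 2-fold for the channel gene TOMM40, the receptor gene TOMM22 and the small subunit gene TOMM5. TOMM40 (ENSG00000130204, GRCh38 chromosome 19, 44890569 to 44903689, plus strand), the pore through which nearly all precursors pass, had 96.8 and 76.8 CPM with the CELF2 ASO, against 288 and 296 CPM with the control ASO. Both CELF2 ASO libraries lay well below both control ASO libraries, and the level was 3.36-fold lower (log2 fold change -1.75, SE 0.11, edgeR adjusted p = 2.09e-05). Rows named as TOMM40 pseudogenes held 7.82% of the summed counts of gene and pseudogenes. With pseudogene rows added to the members, the log2 fold change of TOMM40 was -1.61. TOMM22 (ENSG00000100216, chromosome 22, 38681948 to 38685421, plus strand), the receptor that also holds the complex together, had 70.0 and 76.0 CPM with the CELF2 ASO and 186 and 181 CPM with the control ASO. The groups were again apart, by 2.51-fold (log2 fold change -1.33, SE 0.08, edgeR adjusted p = 1.41e-05). The small subunit gene TOMM5 had 4.87 and 3.52 CPM with the CELF2 ASO and 12.6 and 12.9 CPM with the control ASO, 3.03-fold lower (edgeR adjusted p = 0.000199). It is the least abundant of the complex's tested genes here, and it shares exon bases on its own strand with 2 other annotated genes.

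The presequence receptor TOMM20 had 273 and 286 CPM with the CELF2 ASO, against 267 and 280.4 CPM with the control ASO. The groups overlapped and the gene did not pass (log2 fold change 0.03, 95% interval -0.14 to 0.20, edgeR adjusted p = 0.755), with a sign that turned under some settings. TOMM70, the receptor for carrier precursors that docks cytosolic HSP70 and HSP90, fell 1.21-fold (edgeR adjusted p = 0.017), a call that did not hold without either control library (adjusted p = 0.131 and 0.111) and with library totals alone (0.0847). TOMM34, a cytosolic cochaperone of the same chaperones, fell 1.32-fold (edgeR adjusted p = 0.0107). TOMM7, a small subunit that also stabilises the kinase PINK1 on the complex, went the other way, with 118 and 148 CPM in the CELF2 ASO libraries and 97.8 and 103 CPM with the control ASO. It rose 1.32-fold (log2 fold change 0.41, SE 0.11, edgeR adjusted p = 0.016), a call that did not hold without control_LNA_ASO replicate 1 (adjusted p = 0.09).

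The TOMM40 promoter is shown because this gene had the largest fall of the outer membrane members and because it has the most CCAAT boxes before the start site of any member window. The RefSeq sequence covers the 250 bases before the start site (GRCh38.p14, chr19:44891004-44891253, plus strand), with CCAAT in capitals.
TOMM40: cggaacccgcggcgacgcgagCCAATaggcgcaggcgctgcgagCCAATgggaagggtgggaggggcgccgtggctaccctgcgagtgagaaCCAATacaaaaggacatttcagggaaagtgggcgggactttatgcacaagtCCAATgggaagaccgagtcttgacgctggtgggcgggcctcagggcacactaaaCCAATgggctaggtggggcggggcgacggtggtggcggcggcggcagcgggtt
CCAAT stood 5 times in this window, at 229, 206, 158, 107 and 53 bases before the start site. Windows of 250 bases before to 50 bases after a start site were searched on both strands. Of the 16430 promoters of tested genes, 0.517% held 5 or more. The threshold of 5 is this window's own count, and the window was picked for having the most, so this share is no test. The window of TIMM17A, which also fell, held 5 as well, with 1 of them past the start site.

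Genes of the sorting routes beyond TOM fell too. CHCHD4 (MIA40, ENSG00000163528, chromosome 3, 14112077 to 14124870, minus strand), the oxidoreductase that traps cysteine-rich proteins in the intermembrane space, had 18.5 and 18.7 CPM with the CELF2 ASO, against 45.2 and 43.8 CPM with the control ASO. It was 2.39-fold lower (log2 fold change -1.26, SE 0.09, edgeR adjusted p = 2.71e-05). SAMM50, the core of the complex that inserts beta-barrel proteins into the outer membrane, had 56.3 and 54.7 CPM with the CELF2 ASO and 88.0 and 87.9 CPM with the control ASO, 1.59-fold lower (edgeR adjusted p = 0.000191). In both genes the replicates of each group lay close together and the groups did not overlap.

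The small TIM chaperones escort hydrophobic precursors across the intermembrane space, TIMM9 with TIMM10 and TIMM8A with TIMM13. Of the 5 genes 4 fell and TIMM9 rose. TIMM10 (ENSG00000134809, chromosome 11, 57528463 to 57530803, minus strand) had 46.0 and 41.3 CPM with the CELF2 ASO, against 95.9 and 93.3 CPM with the control ASO, 2.17-fold lower (log2 fold change -1.12, SE 0.08, edgeR adjusted p = 3.43e-05). TIMM9 had 16.7 and 21.0 CPM with the CELF2 ASO and 13.0 and 13.9 CPM with the control ASO. It was 1.40-fold higher (log2 fold change 0.49, SE 0.14, edgeR adjusted p = 0.0192), a call that did not hold without either control library (adjusted p = 0.12 and 0.0503). TIMM9 also shares 223 exon bases with KIAA0586 on the other strand, and no strand setting is given for the counts.

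TIMM13 had 96.4 and 67.2 CPM with the CELF2 ASO, against 187 and 214 CPM with the control ASO. Its replicates were the most spread of the small TIM genes, yet the groups did not overlap, and it was 2.44-fold lower (edgeR adjusted p = 0.00161). Its exons share 257 bases with LMNB2 on the same strand. TIMM8B, at 1.99-fold lower (edgeR adjusted p = 3.48e-05), and TIMM8A, the gene of a deafness and dystonia syndrome, at 1.55-fold lower (edgeR adjusted p = 0.00192), fell by less. TIMM8B shares 351 exon bases with NKAPD1 on the other strand. Rows named as TIMM8B pseudogenes held 5.88% of the summed counts of gene and pseudogenes.

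The TIM22 translocase inserts carrier proteins into the inner membrane. Its channel gene TIMM22 (ENSG00000177370, chromosome 17, 997117 to 1003671, plus strand) had 12.3 and 11.7 CPM with the CELF2 ASO, against 30.6 and 30.3 CPM with the control ASO. The fall was 2.53-fold with almost no spread within a group (log2 fold change -1.34, SE 0.10, edgeR adjusted p = 3.6e-05). Its partner TIMM29 had 12.5 and 10.8 CPM with the CELF2 ASO and 12.0 and 14.1 CPM with the control ASO. These values overlapped, and TIMM29 did not pass (log2 fold change -0.16, 95% interval -0.48 to 0.17, edgeR adjusted p = 0.37).

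The TIMM22 promoter is shown as 1 of 2 member windows that held TGATGCAA, the composite element read by ATF4 and C/EBP proteins, the other being PMPCB. Both genes were called lower, PMPCB with a call that did not hold under some settings. The ATF4 mRNA was higher, and any action of ATF4 on these 2 genes was not tested. The sequence is from RefSeq (GRCh38.p14, chr17:996879-997128, plus strand), with that element, on the minus strand 82 bases before the start site, and a CCAAT box in capitals.
TIMM22: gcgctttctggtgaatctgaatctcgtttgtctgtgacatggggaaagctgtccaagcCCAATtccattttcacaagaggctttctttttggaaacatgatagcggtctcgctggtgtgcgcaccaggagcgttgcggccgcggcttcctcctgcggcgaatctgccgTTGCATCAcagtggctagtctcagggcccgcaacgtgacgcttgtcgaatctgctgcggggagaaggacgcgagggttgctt
Over the promoters of tested genes, 0.596% held TGATGCAA on either strand, and with TGATGNAA the share was 2.1%. RefSeq windows were matched to 35 of the 40 members, 40 windows in all.

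All 5 genes of the TIM23 translocase, which takes presequence proteins through the inner membrane, fell without overlap. Over all tested genes 27.9% were called lower and 79.6% did not overlap. TIMM23 (ENSG00000265354, chromosome 10, 45972449 to 46003734, plus strand), the channel of this translocase, had 22.4 and 23.1 CPM with the CELF2 ASO, against 81.5 and 78.9 CPM with the control ASO. This 3.52-fold difference was the largest of all 39 tested members in either direction (log2 fold change -1.82, SE 0.08, edgeR adjusted p = 5.78e-06). The near-identical copy TIMM23B had 34 and 28 counts in the CELF2 ASO libraries and 49 and 35 counts in the control ASO libraries. With these counts added to TIMM23 the log2 fold change was -1.77. The rule for reads that match both genes is not given, so this sum cannot show how such reads bear on the change.

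TIMM50 (ENSG00000105197, chromosome 19, 39480412 to 39493785, plus strand), the receptor that takes presequences from TOM, had 45.5 and 39.7 CPM with the CELF2 ASO and 125 and 121 CPM with the control ASO, 2.89-fold lower (log2 fold change -1.53, SE 0.09, edgeR adjusted p = 1.38e-05). TIMM21, which links TIM23 to TOM and to the respiratory chain, had 21.3 and 19.0 CPM with the CELF2 ASO and 43.1 and 42.5 CPM with the control ASO, 2.12-fold lower (edgeR adjusted p = 7.36e-05). The paralogs TIMM17A and TIMM17B, alternative partners of the channel, fell by less. TIMM17B had 83.3 and 78.0 CPM with the CELF2 ASO and 118 and 124 CPM with the control ASO, lower by a log2 difference of -0.58 (edgeR adjusted p = 0.000522), and TIMM17A fell 1.80-fold (edgeR adjusted p = 0.000171).

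The import motor was mixed, with 3 of 7 genes lower, 2 higher and 2 that did not pass. HSPA9, the matrix HSP70 that drives the motor, had 796 and 884 CPM with the CELF2 ASO, against 687 and 706 CPM with the control ASO. It was the most abundant member by CPM in every library and rose 1.21-fold (log2 fold change 0.27, SE 0.08, edgeR adjusted p = 0.023), a call that did not hold without either control library (adjusted p = 0.33 and 0.24) and with DESeq2 (0.0619). Its nucleotide exchange factors moved apart. GRPEL1 (ENSG00000109519, chromosome 4, 7058906 to 7068197, minus strand) had 24.9 and 28.5 CPM with the CELF2 ASO and 52.0 and 54.3 CPM with the control ASO, 1.99-fold lower (log2 fold change -0.995, SE 0.09, edgeR adjusted p = 0.000102). GRPEL2 (ENSG00000164284, chromosome 5, 149345430 to 149354583, plus strand) had 44.2 and 45.6 CPM with the CELF2 ASO and 28.1 and 26.8 CPM with the control ASO, 1.64-fold higher (log2 fold change 0.71, SE 0.08, edgeR adjusted p = 0.000297). Neither gene's groups overlapped.

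The tether TIMM44, which holds HSPA9 at the channel exit, fell 1.36-fold (edgeR adjusted p = 0.00155). Of the J-proteins that stimulate HSPA9, DNAJC15 fell (log2 fold change -0.26, edgeR adjusted p = 0.0345), a call that did not hold with library totals alone, the 1 CPM filter, DESeq2 and without either control library (adjusted p between 0.062 and 0.187). DNAJC19 had 19.9 and 16.1 CPM with the CELF2 ASO and 19.3 and 21.5 CPM with the control ASO and did not pass (95% interval of the log2 fold change -0.49 to 0.13, edgeR adjusted p = 0.282). Rows named as its pseudogenes held 10.3% of the summed counts of gene and pseudogenes. PAM16, the J-like regulator of the motor, had 3.64 and 3.06 CPM with the CELF2 ASO and 4.04 and 2.73 CPM with the control ASO. At this low level, and with a readthrough gene over its exons, its 95% interval ran from -0.57 to 0.53 on the log2 scale (edgeR adjusted p = 0.948).

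Of the folding factors of the matrix, TRAP1 (ENSG00000126602, chromosome 16, 3651639 to 3717597, minus strand), the mitochondrial HSP90, had 207 and 169.9 CPM with the CELF2 ASO, against 435 and 446 CPM with the control ASO. It was 2.34-fold lower (log2 fold change -1.23, SE 0.10, edgeR adjusted p = 5.75e-05), and its groups were far apart. DNAJA3, a J-protein of HSPA9 in folding, had 219 and 209 CPM with the CELF2 ASO and 227 and 224 CPM with the control ASO. The groups did not overlap, but the difference did not pass (log2 fold change -0.08, 95% interval -0.24 to 0.09, edgeR adjusted p = 0.393), and its sign turned with library totals alone.

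The subunits of the processing peptidase, which act as a dimer that cuts off presequences, did not move by the same amount. PMPCA (ENSG00000165688, chromosome 9, 136410570 to 136423761, plus strand), the subunit that binds the substrate, had 78.1 and 69.1 CPM with the CELF2 ASO, against 202 and 214 CPM with the control ASO, 2.82-fold lower (log2 fold change -1.50, SE 0.09, edgeR adjusted p = 1.38e-05). PMPCB, the catalytic subunit, had 62.1 and 55.8 CPM with the CELF2 ASO and 72.5 and 72.7 CPM with the control ASO. Its 1.23-fold fall (log2 fold change -0.30, SE 0.08, edgeR adjusted p = 0.0155) was lost without either control library (adjusted p = 0.0873 and 0.0967) and with library totals alone (0.137). PMPCB shares 628 exon bases with DNAJC2 on the other strand.

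**Figure D2:**
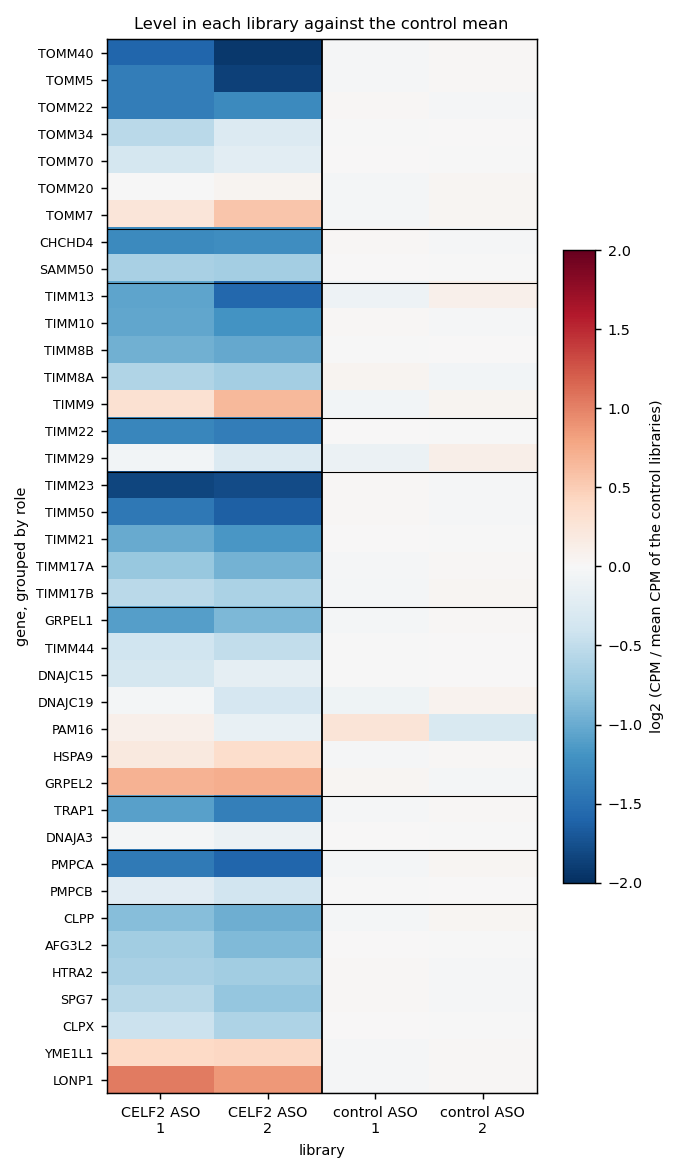
Level of each tested member in each library (columns) as log2 of its CPM over the mean CPM of the control ASO libraries, grouped by role (rows, black lines). Blue is lower and red higher than that mean. TIMM23, TOMM40, TIMM50 and PMPCA are blue in both CELF2 ASO libraries, and LONP1, GRPEL2 and YME1L1 are red in both.

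Of the 7 quality-control proteases, 5 fell and LONP1 and YME1L1 rose. LONP1 (ENSG00000196365, chromosome 19, 5691834 to 5720572, minus strand), the main ATP-dependent protease of the matrix, had 714 and 634 CPM with the CELF2 ASO, against 342 and 356 CPM with the control ASO. Both CELF2 ASO libraries were above both control ASO libraries, and the 1.93-fold rise was the largest of any member (log2 fold change 0.95, SE 0.08, edgeR adjusted p = 7.8e-05). YME1L1, the i-AAA protease that faces the intermembrane space, had 240.4 and 243 CPM with the CELF2 ASO and 180.1 and 186 CPM with the control ASO. It rose 1.32-fold (log2 fold change 0.40, SE 0.07, edgeR adjusted p = 0.00209), a call that did not hold without either control library (adjusted p = 0.0869 and 0.0506). LONP1 shares 43 exon bases with the ribosomal protein gene RPL36 on the other strand, which had 95957 counts over the 4 libraries against 52866 for LONP1.

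CLPP, the peptidase core of the other matrix protease, had 77.7 and 70.9 CPM with the CELF2 ASO and 137 and 143 CPM with the control ASO, 1.88-fold lower (log2 fold change -0.91, SE 0.08, edgeR adjusted p = 7.29e-05). Its unfoldase CLPX fell 1.44-fold (edgeR adjusted p = 0.00162). The subunits of the m-AAA protease of the inner membrane fell to a like degree, AFG3L2 by 1.72-fold (edgeR adjusted p = 0.000197) and SPG7, the gene of a spastic paraplegia, by 1.58-fold (edgeR adjusted p = 0.000964). HTRA2, a serine protease of the intermembrane space that promotes apoptosis once released, fell 1.59-fold (edgeR adjusted p = 0.000853), and it shares 483 exon bases with the more abundant AUP1 on the other strand.

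LONP1 promoters are shown because this gene rose most and RefSeq lists 2 start sites for it. The first lies 250 bases before the downstream start (GRCh38.p14, chr19:5720147-5720396, minus strand) and has its E-boxes, CACGTG, in capitals. The other lies before the upstream start (chr19:5720453-5720702, minus strand) and has the NRF1 core, GCGCATGC on either strand, in capitals.
LONP1 downstream start: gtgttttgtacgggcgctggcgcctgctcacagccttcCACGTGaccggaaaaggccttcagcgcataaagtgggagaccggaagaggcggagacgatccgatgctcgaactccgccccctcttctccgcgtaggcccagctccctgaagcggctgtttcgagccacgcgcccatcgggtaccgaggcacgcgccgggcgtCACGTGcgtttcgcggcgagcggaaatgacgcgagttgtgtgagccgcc
LONP1 upstream start: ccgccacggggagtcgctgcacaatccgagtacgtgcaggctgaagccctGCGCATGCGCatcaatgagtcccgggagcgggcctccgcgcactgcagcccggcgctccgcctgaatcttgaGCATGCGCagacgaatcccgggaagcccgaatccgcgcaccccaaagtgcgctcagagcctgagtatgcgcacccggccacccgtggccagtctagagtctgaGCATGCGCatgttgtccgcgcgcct
The E-boxes began 212 and 49 bases before the downstream start, and 0.901% of promoters of tested genes held 2 or more. The NRF1 core matched 4 times before the upstream start, with 2 of the matches overlapping on opposite strands, and 0.049% of promoters of tested genes held 4 or more. Over all member windows, 6 of 40 held an NRF1 core, against 4.67% of promoters of tested genes, 5 of 40 held an E-box, against 9.06%, and 12 of 40 held CCAAT, against 34.6%. The heat shock element pair GAANNTTC was in 0 of 40, against 4.88%. The thresholds of 2 E-boxes and 4 NRF1 cores are the LONP1 windows' own counts, so those shares are no test. Such matches are letters in a window and no factor's binding was measured.

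Ratios within a library do not depend on how libraries are scaled. Counts per exon length of GRPEL1 over GRPEL2 were 0.596 and 0.661 in the CELF2 ASO libraries, against 1.96 and 2.15 in the control ASO libraries, so GRPEL2 was the higher of the pair with the CELF2 ASO and GRPEL1 with the control ASO. The ratio of PMPCA to PMPCB was 0.922 and 0.909 with the CELF2 ASO and 2.05 and 2.15 with the control ASO. Before division by exon length, PMPCA had more counts than PMPCB in all 4 libraries. TIMM9 over TIMM10 was 0.188 and 0.263 with the CELF2 ASO and 0.07025 and 0.0771 with the control ASO. TOMM40 over TOMM20 was 0.348 and 0.264 with the CELF2 ASO and 1.06 and 1.04 with the control ASO. Each of these ratios was apart between the groups in all 4 libraries. SPG7 over AFG3L2 was apart as well, but by 1.09-fold, at 0.0782 and 0.0769 with the CELF2 ASO and 0.0721 and 0.0704 with the control ASO. Of the 11 pairs examined, DNAJC15 over DNAJC19 was the only one that overlapped between the groups. Single genes did not overlap in 79.6% of all tested genes and 84.0% of tested protein-coding genes. No such share was taken for ratios of other pairs. The partner pairs were added after values were seen. With 2 libraries per group an exact permutation test cannot reach 0.05, and none was run on the ratios.

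**Figure D3:**
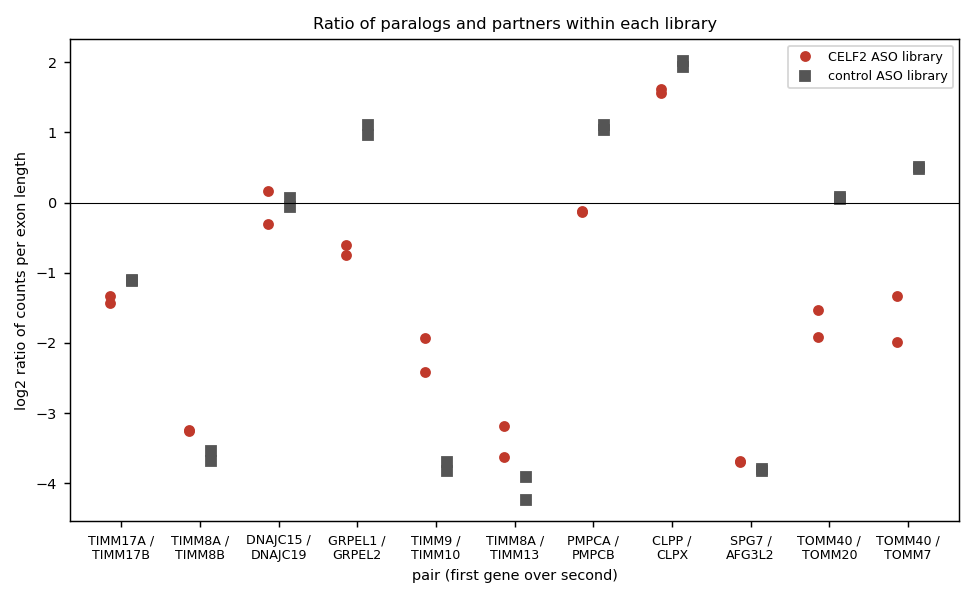
Log2 ratio of counts per exon length within each library (y axis), for each paralog or partner pair (x axis, first gene over second). Circles are CELF2 ASO libraries and squares control ASO libraries. GRPEL1 over GRPEL2 and PMPCA over PMPCB lie below 0 with the CELF2 ASO and above 0 with the control ASO, while DNAJC15 over DNAJC19 overlaps. The side of 0 on which PMPCA over PMPCB lies depends on the exon lengths used.

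The order of the members' levels also differed. On the scale of CPM per kilobase of exon, LONP1 led in the CELF2 ASO libraries at 140.4 and 124.6, followed by HSPA9 at 96.4 and 107.1, TOMM20 at 77.1 and 80.6 and TOMM7 at 67.6 and 84.5, and TOMM20 and TOMM7 overlapped. In the control ASO libraries TIMM10 led at 123.4 and 120.1, followed by TIMM13 at 94.6 and 108.2. HSPA9, TRAP1, TOMM22, TOMM40 and TOMM20 came next, with means between 77.3 and 84.3, and LONP1 was at 67.2 and 70.0. Exon length here is that of all annotated exons together, so genes with long rare exons, such as SPG7, are placed too low.

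The 53 other genes examined around the same pathway had 32 calls lower, 8 higher and 13 that did not pass, and a median log2 fold change of -0.52. The calls lower were 60.4% and the calls higher 15.1% of the list, against 27.9% and 27.5% of all tested genes. Of tested protein-coding genes 35.4% were called lower and 28.0% higher, and the counts by group that follow have the same backgrounds. The list was chosen with earlier results of these data known, which may bear on its shares. Without control_LNA_ASO replicate 2 the calls higher numbered 5. Of 14 other import genes 9 fell and 2 rose. MTCH2, an insertase of the outer membrane, fell 3.43-fold (edgeR adjusted p = 6.63e-06), the TOM40-like gene TOMM40L 2.66-fold (edgeR adjusted p = 2e-05) and the metaxin gene MTX1 of the SAM complex 2.47-fold (edgeR adjusted p = 0.000111). TIMM10B, another small TIM, rose 1.47-fold (edgeR adjusted p = 0.00497), and MTX3 rose 1.34-fold (edgeR adjusted p = 0.0102), a call that did not hold without either control library (adjusted p = 0.0691 and 0.0752). MTX2, the inner membrane insertase OXA1L and COX18 had log2 fold changes of -0.24, 0.02 and 0.22 and did not pass.

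MICOS, the complex that shapes cristae and contacts SAM, had 6 of 7 genes lower. CHCHD6 fell 3.19-fold (edgeR adjusted p = 0.000109), APOO 2.82-fold (edgeR adjusted p = 0.000121), MICOS13 2.68-fold (edgeR adjusted p = 1.17e-05) and CHCHD3 2.09-fold (edgeR adjusted p = 3.06e-05). APOOL, another MICOS subunit, rose to 28.95 and 26.7 CPM with the CELF2 ASO, against 11.9 and 14.6 CPM with the control ASO (2.11-fold, edgeR adjusted p = 0.000304). Of 14 other proteases and scaffolds 7 fell and 2 rose, with PHB1, a prohibitin that rings the m-AAA protease, 3.89-fold lower (edgeR adjusted p = 4.19e-06) and STOML2, the scaffold of YME1L1, 2.15-fold lower (edgeR adjusted p = 9.08e-05). The peptidase XPNPEP3 rose 1.48-fold (edgeR adjusted p = 0.00054). LACTB rose 1.53-fold (edgeR adjusted p = 0.0243), a call that did not hold with DESeq2 (adjusted p = 0.0542) and without CELF2_LNA_ASO replicate 2 (0.0649), control_LNA_ASO replicate 1 (0.081) or replicate 2 (0.0741).

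Among 5 other matrix chaperones 3 fell and none rose. The chaperonin subunit HSPE1 had 16.3 and 14.1 CPM with the CELF2 ASO and 35.2 and 37.6 CPM with the control ASO. Its partner HSPD1 had 1299 and 1370.4 CPM with the CELF2 ASO and 1241 and 1276 CPM with the control ASO. HSPD1 did not pass (edgeR adjusted p = 0.357). Exons shared with other genes were looked up for the members alone, not for HSPE1 or HSPD1. HSPD1 passed as higher when scaled by totals (edgeR adjusted p = 0.0375). Its log2 fold change was 0.13 without CELF2_LNA_ASO replicate 1, a fit in which the spread comes from the control ASO pair. DNLZ, the escort of HSPA9, was under 1 CPM in every library and fell 2.82-fold (edgeR adjusted p = 0.0183), a call that did not hold with DESeq2 (adjusted p = 0.108) and without control_LNA_ASO replicate 1 (0.233). HSCB, which serves iron-sulfur cluster transfer, had a log2 fold change of 0.06 and did not pass.

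Of 7 cytosolic chaperones that keep precursors unfolded, 6 fell, with HSPA8 at 592 and 929 CPM with the CELF2 ASO, against 3075 and 3094 CPM with the control ASO, 4.06-fold lower (edgeR adjusted p = 0.00137), a call that did not hold with no filter on low counts (adjusted p = 0.0983). HSP90AA1 fell 3.71-fold (edgeR adjusted p = 1.02e-05), HSP90AB1 3.09-fold (edgeR adjusted p = 7.33e-06) and the J-protein gene DNAJB1 2.61-fold (edgeR adjusted p = 4.34e-05). DNAJA1 had 149.7 and 248.98 CPM with the CELF2 ASO and 318 and 333 CPM with the control ASO. It did not pass (edgeR adjusted p = 0.0798). Its log2 fold change was -0.38 without CELF2_LNA_ASO replicate 1 and -1.14 without CELF2_LNA_ASO replicate 2. In those fits the spread comes from the control ASO pair. Without control_LNA_ASO replicate 1 or replicate 2, fits whose spread comes from the CELF2 ASO pair, the log2 fold change of DNAJA1 was -0.77 and -0.70. DNAJA1 passed as lower with a replicate block (edgeR adjusted p = 0.00726).

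Of 6 regulators of the mitochondrial stress response, ATF4, DDIT3 and HAX1 rose, ATF5 fell, and DELE1 and EIF2AK1, which relay mitochondrial damage to the integrated stress response, did not pass (log2 fold changes 0.23 and -0.04). DDIT3 had 49.4 and 69.4 CPM with the CELF2 ASO, against 2.04 and 2.64 CPM with the control ASO, ATF4 was 4.79-fold higher (edgeR adjusted p = 4.19e-06) and ATF5 3.04-fold lower (edgeR adjusted p = 1.04e-05). HAX1, a partner of intermembrane space proteases and chaperones, rose 1.43-fold (edgeR adjusted p = 0.00116). DELE1 passed as higher when scaled by totals (edgeR adjusted p = 0.0485). Its log2 fold change was 0.34 without CELF2_LNA_ASO replicate 2, a fit in which the spread comes from the control ASO pair. Of the 13 mRNAs made inside mitochondria 3 rose (23.1%), 5 fell (38.5%) and 5 did not pass, shares near the 27.5% and 27.9% of all tested genes. They summed to 33672 and 33989 CPM with the CELF2 ASO, against 31061 and 30578 CPM with the control ASO. The part of these other changes in the levels of the import and protease genes was not tested.

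**Figure D4:**
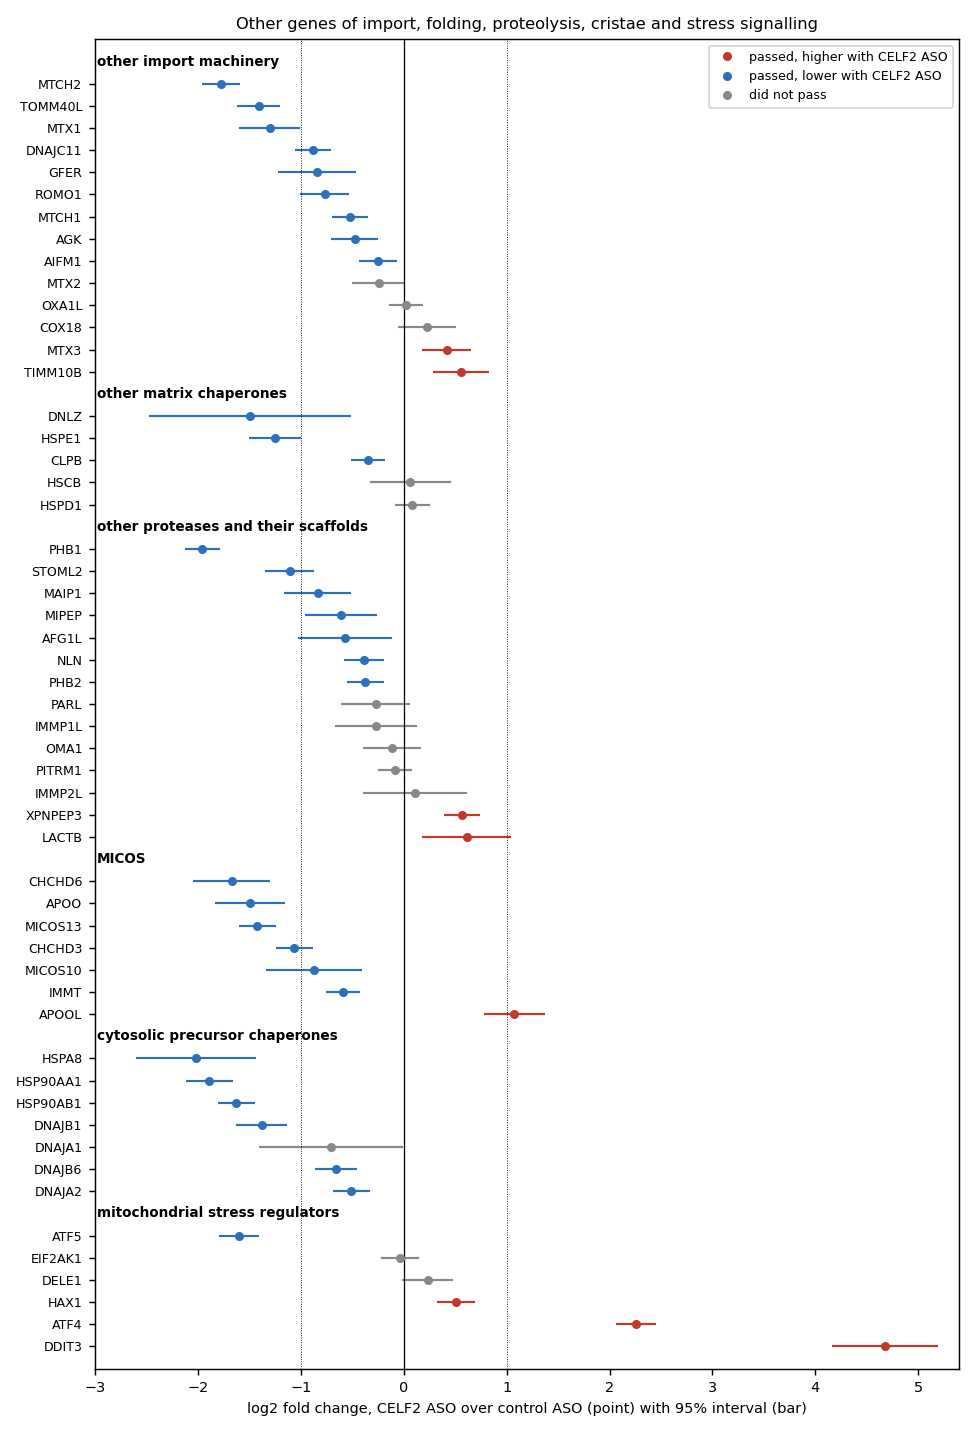
Log2 fold change of the 53 other pathway genes, CELF2 ASO over control ASO (x axis, points), with 95% intervals (bars), grouped by list and coloured by whether the gene passed an adjusted p of 0.05. MICOS genes lie left of 0 except APOOL, and DDIT3 and ATF4 lie farthest right.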

How the data were processed

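The authors deposited raw read counts per gene as whole numbers. Per the submitters' processing notes, STAR 2.7.11b, featureCounts 2.0.8, Salmon 1.10.0 and GRCh38 were used. For the annotation, strand setting and multi-mapping rule the sources say nothing. The labels describe library preparation both by poly(A) selection and by removal of ribosomal RNA.

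The 97 rows that name no gene held 1 to 3 counts per library and were left out. Genes were kept by filterByExpr (minimum count 10, minimum total 15), which left 19511, scaled by TMM and compared in R 4.3.3 with edgeR 4.0.16 (quasi-likelihood, robust, two-sided, no covariate), with Benjamini-Hochberg adjustment over all tested genes at 0.05. CPM values use TMM library sizes. A standard error is the absolute log2 fold change over the root of F. Replicates differed beyond sampling noise (chi-square per degree of freedom 18.5 for the CELF2 ASO pair and 3.38 for the control ASO pair). Positions and exon lengths come from GENCODE 29, symbols from a name table, and promoter sequences from RefSeq (GRCh38.p14). The script was tested on simulated data.

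The members and lists were chosen with earlier results of these data known. Values in every library went to members with a 2-fold call and to those with the smallest and largest adjusted p of a role. Other pathway genes are named when called at 2-fold or more, up to 4 per list, or when 3 or fewer of a list did not pass. Library values of TOMM7, HSPA9, DNAJC19, GRPEL2, LONP1 and some other pathway genes, the LONP1 promoters, the partner pairs and other pathway genes that rose by under 2-fold were added after values were seen. Alternatives were RLE scaling, library totals, no filter, a 1 CPM filter, DESeq2 1.42.0, limma-voom (limma 3.58.1), a replicate block, leaving out each library, and pseudogene rows added to members.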

Additional observations from a re-analysis of the deposited data

How the results depend on the processing

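Leaving out 1 library at a time gave 25 to 29 falling and 2 to 6 rising members, and 5 to 9 rising and 29 to 34 falling other pathway genes. CELF2 stayed between -1.39 and -1.20 in those fits. Of the 28 members that fell, 25 kept their call under every alternative tried, and of the 6 that rose, LONP1 and GRPEL2 did. Library totals alone moved the median of all genes by 0.12 (log2) and gave 25 falls and 6 rises among the members. Signs turned only for genes that did not pass. TOMM20 had a log2 fold change of -0.026 with no filter and -0.034 to 0.068 with 1 library left out. PAM16 had 0.097 with library totals, 0.031 with the 1 CPM filter and -0.29 to 0.27 with 1 library left out. DNAJA3 had 0.040 with library totals. OXA1L had -0.031 with no filter and -0.037 to 0.037 with 1 library left out, and HSCB had -0.066 to 0.15. EIF2AK1 had 0.080 with library totals, 0.015 with the 1 CPM filter and -0.11 to 0.017 with 1 library left out. The cause was not tested. Without CELF2_LNA_ASO replicate 1, DNAJC19 had a log2 fold change of -0.33 and MTX2 of -0.31, in a fit whose spread comes from the control ASO pair. Neither gene passed with all libraries in the fit. The number in the labels is not stated to pair libraries, and the deviations of same-numbered libraries had a correlation of 0.05. With it as a replicate block 28 members fell and 6 rose, 5407 genes were higher and 5402 lower, CELF2 had -1.28, and DNAJA1 passed (adjusted p = 0.00726). Rows of 15 members' named pseudogenes, added to the members, left 28 falls and 6 rises. With 2 libraries per group, a small change of a gene as low as PAM16 is poorly resolved.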
